A study of Mus musculus with 6 samples.

Results

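The genes described here are the heat shock chaperones of the HSP70 and HSP90 classes and the J proteins that direct them, taken as every gene whose array symbol begins with Hsp90, with Hspa and a digit, or with Dnaja, Dnajb or Dnajc and a digit. There were 59 such genes, measured by 150 probe sets, among 18193 genes in all. A gene's value is that of the probe set with the highest mean over all 6 arrays. Hsp90ab1 and Dnajc19 had no probe set under their symbol alone and were not analysed here. The cells were CT26, a murine colon carcinoma line from the BALB/c strain. In the shSep15 group (3 arrays) the cells had been transfected with the plasmid pU6-m3 carrying a short hairpin against Sep15, and in the control group (3 arrays) with the empty plasmid. Sep15, now named Selenof, encodes a selenoprotein of the endoplasmic reticulum (ER). The 19-nt target, shown because it defines the knockdown, lies in the cDNA of Selenof, a gene on chromosome 3, and its place in the genome was not determined.
Selenof hairpin target: acagaagagttccatttaa

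A single hairpin was used, and whether a clone or a pool of transfected cells was used is not stated. The 3 arrays of a group came from different mRNA samples, but separate cultures are not stated, so the p-values measure the spread between these samples. Values are log2 probe set signals made by robust multi-array average (RMA), and all differences are shSep15 minus control. A gene was called higher or lower where limma's adjusted p was under 0.05, and near background where both group means lay under a log2 of 6.02. A further probe set of a gene is said to be above background where its mean over all 6 arrays exceeds that level. The brighter Selenof probe set read 9.34, 9.59 and 9.50 on the shSep15 arrays, against 12.41, 12.44 and 12.35 on the control arrays. The signal fell by 2.92 (SE 0.08, limma adjusted p = 2.43e-07), to 13.2% of the signal in control cells. The gene's other probe set lay near background (4.70 in shSep15 and 4.71 in control cells) and gave no reading, and with the mean of both probe sets the difference was -1.47. Array medians ran from 5.83 to 5.87, and correlations between arrays were 0.993 to 0.996 within a group and 0.975 to 0.980 across groups.

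Of the epithelial markers checked, Epcam was above background in both groups, at 7.55 in shSep15 and 7.59 in control cells, whereas Cdh1, Krt19, Vil1 and Cldn7 were near background. Krt18 and Krt20 were lower in shSep15 cells, and the log2 of the summed signal of the 8 epithelial markers was 8.74 to 9.01 on shSep15 and 9.51 to 9.77 on control arrays. Of 6 fibroblast markers 5 were above background, 2 higher and 3 lower, with log2 sums of 12.89 to 13.38 in shSep15 and 12.80 to 13.02 in control cells. Of 5 leukocyte markers 3 were near background, Ptprc among them, with sums of 8.20 to 8.56 in shSep15 and 8.20 to 8.39 in control cells. Of 4 endothelial markers 3 were near background, with sums of 7.37 to 7.51 in shSep15 and 7.43 to 7.44 in control cells. The part of these markers in the differences below was not tested. In such bulk RNA, fewer cells of a type and less RNA per cell cannot be told apart.

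HSP70 proteins bind exposed hydrophobic stretches of unfolded proteins and release them in a cycle driven by ATP. J proteins carry a conserved J domain that delivers clients and sets off ATP hydrolysis by HSP70, and nucleotide exchange factors then reopen the chaperone. HSP90 takes over later folding of kinases, receptors and other clients in the cytosol, and separate HSP70 and J proteins serve the ER and the mitochondrial matrix. In tumour cells these chaperones are known for holding mutated or overproduced proteins in a soluble state.

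Members of the cytosol, nucleus or other places mostly rose where they were called. The mitochondrial HSP70 and its main J protein fell, and the ER members split in both directions. In shSep15 cells 16 members rose and 9 fell, and 34 did not pass the test. That is 27.1% of members higher and 15.3% lower, where 12.2% of all genes were called higher and 12.8% lower. In either direction 42.4% of members and 25% of all genes were called. Near background in both groups were 14 members, none of them called by limma or under an unadjusted p of 0.05, and the 20 other members not called ranged from -0.36 to 0.30. Among the 11124 genes not near background, 39.2% were called, 19.2% higher and 20% lower. Of the 45 members not near background, 55.6% were called, 35.6% higher and 20% lower. The median difference of the 59 members was 0.09, and that of all genes 0.01. Without shSep15 1 the members' median was 0.0498. In the cytosol, nucleus or other places 10 of 40 members rose and 3 fell (median difference 0.09), in the ER 5 of 14 rose and 3 fell (median 0.16), and in mitochondria 1 of 5 rose and 3 fell (median -0.27). Most changes were moderate: 3 members rose by at least 2-fold (2.33% of all genes and 3.76% of those not near background) and 1 fell by as much (3.09% and 4.94%). The members' differences ran from -1.01 for Dnaja3 to 1.83 for Dnajb4. Groups did not overlap for 20 members that were higher (19.3% of all genes and 27.8% of those not near background) and 11 that were lower (18.7% and 27.4%).

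**Figure D1:**
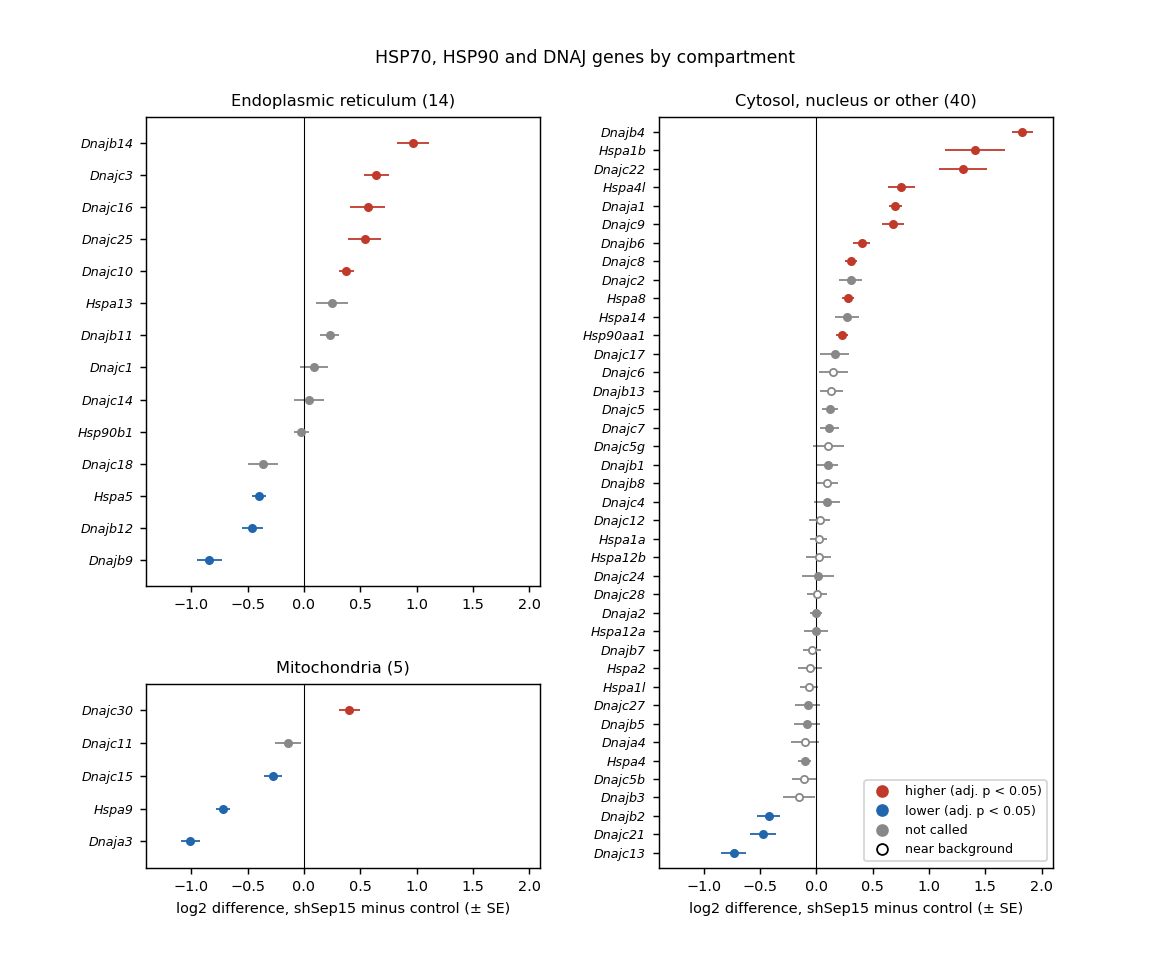
Log2 difference of each of the 59 genes, shSep15 minus control, with its standard error from limma, in panels by cell compartment. Filled points are above background in at least 1 group, red is higher and blue lower at an adjusted p under 0.05. Mitochondrial Hspa9 and Dnaja3 lie on the left, and the ER genes on both sides of 0. Dnajb4, Hspa1b and Dnajc22, in the panel of the cytosol, nucleus or other places, lie on the right.

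Of 13 HSPA genes 3 rose (23.1%), 2 fell (15.4%) and 8 did not pass the test, where 12.2% of all genes were called higher and 12.8% lower. Near background were 4 of the 13. The stress-inducible cytosolic HSP70 Hspa1b read 7.88, 6.68 and 7.53 on the shSep15 arrays, against 6.14, 5.92 and 5.79 on the control arrays. The arrays of the groups did not overlap, and shSep15 2 was the lowest of its group. Hspa1b was higher by 1.41 (SE 0.27, limma adjusted p = 0.00483), a 2.66-fold difference whose size is not exact because the control mean of 5.95 lay under the background level. Its other probe set above background was higher by 1.27. Its near-identical neighbour Hspa1a was near background, at 3.91 ± 0.02 in shSep15 and 3.89 ± 0.12 in control cells (SD, n = 3 each). Transcripts of genes this alike can bind each other's probes, so which of them gave the Hspa1b signal is uncertain.

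The constitutive cytosolic HSP70, Hspa8, read 13.68, 13.63 and 13.64 on the shSep15 arrays, against 13.44, 13.24 and 13.41 on the control arrays. Every shSep15 array lay above every control array, and the difference on this brightest probe set was 0.28 (SE 0.05, 1.22-fold, limma adjusted p = 0.00436). The 3 further probe sets above background differed by 0.36, 0.54 and 0.97, of which the 0.54 was not called (adjusted p = 0.0923), and the mean of all 4 by 0.54 (adjusted p = 0.00369). Hspa8 lost its call without the intensity trend in the test (adjusted p = 0.0577). Hspa4l, a member of the HSP110 branch that acts as a nucleotide exchange factor, read 10.41, 10.26 and 10.31 in shSep15 cells, against 9.57, 9.36 and 9.79 in control cells. It rose by 0.76 (SE 0.12, limma adjusted p = 0.00173), and the 4 further probe sets of the gene, all measurable, were higher by 0.54 to 1.29. Hspa4, of the same branch and singled out after its value was seen, differed by -0.10 on its brightest probe set (limma adjusted p = 0.314), while its dimmest, at 6.30 in shSep15 and 5.68 in control cells, was higher by 0.62 (adjusted p = 0.0307).

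The stress-inducible cytosolic HSP90, Hsp90aa1, read 13.26, 13.12 and 13.13 in shSep15 cells, against 12.99, 12.85 and 12.98 in control cells. The groups did not overlap, and the rise was 0.23 (SE 0.05, 1.17-fold, limma adjusted p = 0.0154). Both other probe sets above background rose, by 0.18 and 0.42. The call on the brightest one ended without control 2 (difference 0.19, adjusted p = 0.0531) or without shSep15 1 (0.19, adjusted p = 0.0625). It also ended without the intensity trend (adjusted p = 0.115), after renewed quantile normalization (0.0509) and with the mean of all probe sets (0.0568).

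Of 4 DNAJA genes 1 rose and 1 fell, and of 13 DNAJB genes 3 rose and 3 fell (23.1% each). Over all genes 12.2% were called higher and 12.8% lower. Among those of the cytosol, Dnajb4, a relative of the main heat-inducible J protein Dnajb1, moved furthest. It read 11.49, 11.31 and 11.57 on the shSep15 arrays, against 9.63, 9.73 and 9.52 on the control arrays. Each shSep15 value was more than a log2 of 1 above each control value. The rise was 1.83 (SE 0.10, 3.55-fold, limma adjusted p = 4.59e-06), and the other probe set above background gave the same size. Dnaja1, a farnesylated partner of Hspa8, read 12.16, 12.05 and 12.13 in shSep15 cells, against 11.45, 11.36 and 11.44 in control cells. It rose by 0.70 (SE 0.06, limma adjusted p = 5.02e-05), and more on its 2 other probe sets above background (1.42 and 1.69), with a mean over all 3 of 1.27. Dnaja2, with a similar role and singled out after its value was seen, differed by 0.00 (limma adjusted p = 0.985). Dnajb6, which holds back the aggregation of polyglutamine proteins, averaged 11.19 ± 0.12 in shSep15 and 10.79 ± 0.02 in control cells (SD, n = 3 each). It rose by 0.40 (limma adjusted p = 0.00533), while a dimmer probe set of the gene was lower by 0.33 (adjusted p = 0.0496), and the mean of its probe sets was not called (0.20, adjusted p = 0.214).

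Dnajb1 itself gave no single answer. Its brightest probe set read 10.64, 10.39 and 10.68 in shSep15 cells, against 10.44, 10.56 and 10.42 in control cells, with overlapping groups and a difference of 0.10 (limma adjusted p = 0.585). Its other probe set was higher by 0.73 (SE 0.10, limma adjusted p = 0.000901), and the mean of both by 0.42 (adjusted p = 0.00777). Dnajb2, which sorts clients to the proteasome, averaged 8.70 ± 0.08 in shSep15 and 9.12 ± 0.07 in control cells (SD, n = 3 each). It fell by 0.42 (limma adjusted p = 0.0155), a call that ended without control 1 (difference -0.39, adjusted p = 0.0524) or without shSep15 2 (-0.39, adjusted p = 0.0601).

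**Figure D2:**
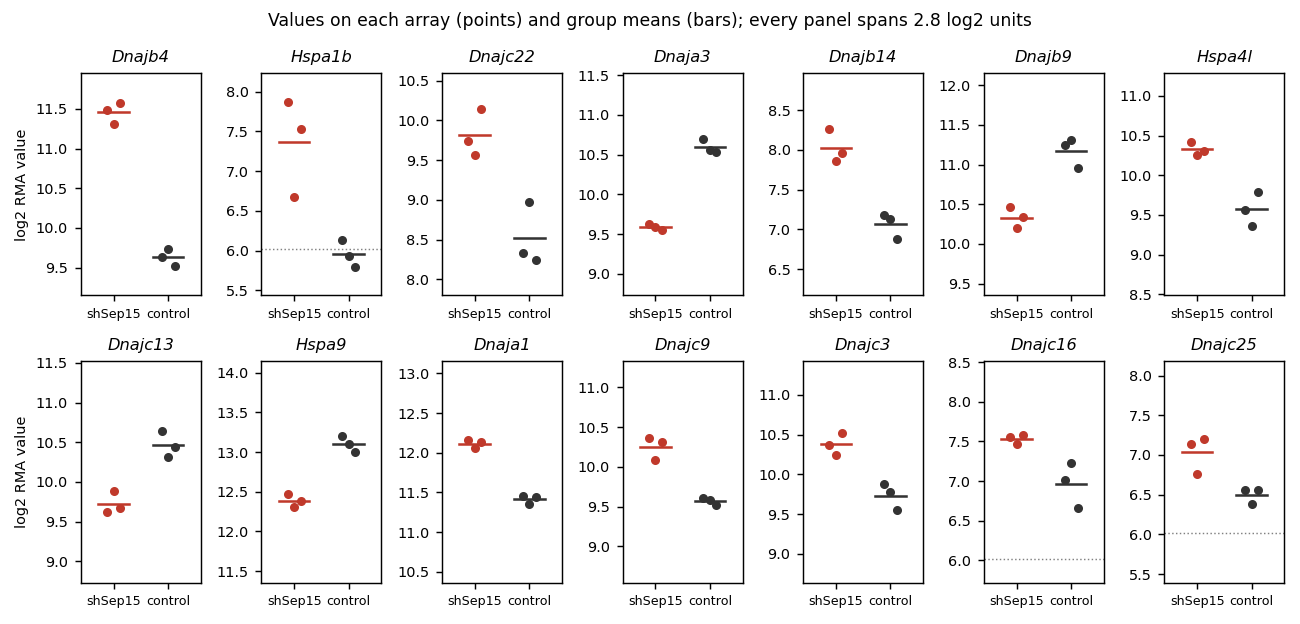
Log2 RMA values on the 3 shSep15 arrays (red, left) and the 3 control arrays (black, right) for the 14 called members with the largest differences, with bars at the group means. Each panel spans the same number of log2 units, and the dotted line marks the background level. Groups are separate in every panel. Hspa1b has the widest spread, with control values around the background level.

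Several J proteins of the DNAJC class, whose members share little beyond the J domain, changed as well. Of 27, 8 rose (29.6%, against 12.2% of all genes) and 3 fell (11.1%, against 12.8%). The other 16 did not pass the test, and 5 of the 27 were near background. Dnajc22, whose Drosophila counterpart acts in clathrin-mediated endocytosis, read 9.74, 9.56 and 10.14 in shSep15 cells, against 8.33, 8.97 and 8.25 in control cells. It rose by 1.30 (SE 0.21, 2.46-fold, limma adjusted p = 0.00205), and its other probe set rose by 1.04. Dnajc9, a chaperone of histones H3 and H4, read 10.36, 10.09 and 10.32 in shSep15 cells, against 9.61, 9.58 and 9.52 in control cells. It rose by 0.68 (SE 0.10, limma adjusted p = 0.00105). Dnajc8, a spliceosome-associated J protein, averaged 11.83 ± 0.03 in shSep15 and 11.53 ± 0.04 in control cells (SD, n = 3 each) and rose by 0.31 (limma adjusted p = 0.00383). Its other probe set, also above background, was not called (0.40, limma adjusted p = 0.0690).

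Dnajc13 and Dnajc21 moved the other way. Dnajc13, which works with Hspa8 on endosomes, read 9.62, 9.89 and 9.67 in shSep15 cells, against 10.64, 10.31 and 10.44 in control cells. It fell by 0.73 (SE 0.11, limma adjusted p = 0.00154), and its other probe set fell by 0.60. Dnajc21, a factor of 60S ribosome maturation, averaged 9.75 ± 0.17 in shSep15 and 10.22 ± 0.14 in control cells (SD, n = 3 each) and fell by 0.47 (limma adjusted p = 0.0181). This call ended without any 1 of control 1, control 3, shSep15 2 and shSep15 3 (differences from -0.48 to -0.38, adjusted p from 0.0556 to 0.0764) and with the mean of its probe sets (-0.26, adjusted p = 0.180).

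In mitochondria the HSP70 and its matrix J protein fell. Hspa9, the matrix HSP70 that pulls precursor proteins through the inner membrane, read 12.47, 12.30 and 12.38 in shSep15 cells, against 13.20, 13.10 and 12.99 in control cells. The groups were well apart, and Hspa9 fell by 0.72 (SE 0.06, 1.64-fold, limma adjusted p = 7.2e-05). On the 3 further probe sets above background Hspa9 fell by 0.57 to 1.34. Dnaja3, the J protein that partners Hspa9 in the matrix, read 9.62, 9.59 and 9.55 in shSep15 cells, against 10.70, 10.56 and 10.54 in control cells. It fell by 1.01 (SE 0.08, 2.02-fold, limma adjusted p = 5.04e-05), and a further probe set fell by 1.08.

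Of 5 mitochondrial members in all, none near background, 3 fell (60%), 1 rose (20%) and 1 was not called. Of all genes not near background 20% were called lower and 19.2% higher. Dnajc15, an inner membrane J protein, averaged 10.69 ± 0.05 in shSep15 and 10.97 ± 0.11 in control cells (SD, n = 3 each) and fell by 0.27 (limma adjusted p = 0.0412). That call ended without any 1 array other than control 3 (differences from -0.29 to -0.22, adjusted p from 0.0835 to 0.143), without the trend (0.0738), with the replicate number as a block (0.0611) and after shifting the arrays to the same median (0.0542). Dnajc30 averaged 9.80 ± 0.06 in shSep15 and 9.39 ± 0.11 in control cells (SD, n = 3 each) and rose by 0.40 (limma adjusted p = 0.0163). It lost its call without control 1, shSep15 1 or shSep15 3 (differences from 0.36 to 0.41, adjusted p from 0.0532 to 0.0645). Dnajc11, a protein linked to cristae and singled out as the only one not called, differed by -0.14 (limma adjusted p = 0.494).

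The ER, where the Selenof protein resides, held 14 members, of which 5 rose (35.7%), 3 fell (21.4%) and 6 did not pass the test. None of the 14 was near background, and of all genes not near background 19.2% were called higher and 20% lower. Hspa5, the ER HSP70 also known as BiP, read 13.17, 13.08 and 13.08 in shSep15 cells, against 13.64, 13.50 and 13.39 in control cells. All shSep15 arrays lay below all control arrays, and Hspa5 fell by 0.40 (SE 0.06, 1.32-fold, limma adjusted p = 0.00144). The next probe set fell by 0.44, but a dimmer one was higher by 0.29 (adjusted p = 0.0488), and with the mean of the probe sets the call ended (-0.18, adjusted p = 0.0793). Hsp90b1, the ER HSP90 also known as GRP94, read 12.58, 12.52 and 12.49 in shSep15 cells, against 12.66, 12.59 and 12.42 in control cells. These values overlapped, with a difference of -0.02 (SE 0.07, limma adjusted p = 0.864).

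The lumenal J proteins that serve Hspa5 diverged. Dnajb9, which represses the stress sensor Ire1 through Hspa5, read 10.46, 10.20 and 10.34 in shSep15 cells, against 11.25, 11.30 and 10.96 in control cells. It fell by 0.84 (SE 0.11, 1.79-fold, limma adjusted p = 0.000591). Dnajc3, also called P58IPK, read 10.37, 10.24 and 10.52 in shSep15 cells, against 9.88, 9.77 and 9.55 in control cells. It rose by 0.64 (SE 0.11, 1.56-fold, limma adjusted p = 0.00322), as did 2 of its 4 other probe sets above background. Dnajc10, a disulfide reductase with thioredoxin-like domains that helps export misfolded proteins for degradation, read 11.13, 11.26 and 11.20 in shSep15 cells, against 10.82, 10.81 and 10.82 in control cells. It rose by 0.38 (SE 0.07, limma adjusted p = 0.00334), and both other probe sets rose. Dnajb11, which binds unfolded clients directly, was not called (0.23, limma adjusted p = 0.113), with means of 10.76 in shSep15 and 10.53 in control cells.

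Dnajb12 and Dnajb14 are related J proteins of the ER membrane whose J domains face the cytosol and work with Hspa8 in the disposal of membrane proteins. They moved apart. Dnajb14 read 8.26, 7.87 and 7.96 in shSep15 cells, against 7.18, 7.13 and 6.87 in control cells, a rise of 0.97 (SE 0.14, limma adjusted p = 0.00132) that its other probe set shared. Dnajb12 averaged 9.24 ± 0.04 in shSep15 and 9.70 ± 0.10 in control cells (SD, n = 3 each), and fell by 0.46 (limma adjusted p = 0.00804), while its dimmer probe set was not called. The test was applied to each gene alone, not to the contrast of the genes.

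Dnajc16 and Dnajc25, both dimmer, were higher. Dnajc16, an ER membrane J protein, read 7.55, 7.47 and 7.58 in shSep15 cells, against 7.02, 7.23 and 6.66 in control cells (0.57, SE 0.15, limma adjusted p = 0.0303). Its other probe set above background did not pass the test (0.03, adjusted p = 0.909), and the mean of both differed by 0.30 (adjusted p = 0.0464). Dnajc25 read 7.14, 6.77 and 7.20 in shSep15 cells, against 6.57, 6.38 and 6.55 in control cells (0.54, SE 0.14, limma adjusted p = 0.0269). Neither was secure. The call of Dnajc16 ended without any 1 array other than control 2 (differences from 0.41 to 0.60, adjusted p from 0.0644 to 0.107), and that of Dnajc25 without any 1 array other than shSep15 2 (0.45 to 0.57, adjusted p from 0.0514 to 0.111).

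ER chaperone genes are known to share the ER stress element, a promoter motif read by Atf6 with the CCAAT-binding factor NF-Y, and the cytosolic genes the heat shock element, read by heat shock factors. RefSeq promoter windows of assembly GRCm38.p6, from 250 bases before to 50 after a gene's start, were found for 47 of the 59 members (61 windows). On either strand, the letters CCAAT and CCACG with 9 bases between them stood in 39 of 32851 windows (0.119%), and among the members in those of Hspa5, Hsp90b1 and Dnajc3. These windows are shown because the 3 genes with the same element differed in outcome. The window of Hspa5 is chr2:34771840-34772139 on the plus strand, that of Hsp90b1 chr10:86705395-86705694 on the minus strand and that of Dnajc3 chr14:118937682-118937981 on the plus strand. Capitals mark the element.
Hspa5: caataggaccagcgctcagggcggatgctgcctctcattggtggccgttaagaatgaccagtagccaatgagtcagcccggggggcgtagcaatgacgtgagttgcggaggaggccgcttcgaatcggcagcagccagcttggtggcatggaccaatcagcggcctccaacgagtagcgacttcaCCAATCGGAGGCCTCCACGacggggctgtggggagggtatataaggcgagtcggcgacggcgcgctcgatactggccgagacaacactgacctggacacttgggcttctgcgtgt
Hsp90b1: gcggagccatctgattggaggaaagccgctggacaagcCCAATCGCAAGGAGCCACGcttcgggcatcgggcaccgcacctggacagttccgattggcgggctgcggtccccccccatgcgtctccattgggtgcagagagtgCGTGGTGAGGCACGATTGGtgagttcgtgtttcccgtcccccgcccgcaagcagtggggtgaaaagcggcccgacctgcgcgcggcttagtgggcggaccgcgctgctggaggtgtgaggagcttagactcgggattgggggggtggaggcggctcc
Dnajc3: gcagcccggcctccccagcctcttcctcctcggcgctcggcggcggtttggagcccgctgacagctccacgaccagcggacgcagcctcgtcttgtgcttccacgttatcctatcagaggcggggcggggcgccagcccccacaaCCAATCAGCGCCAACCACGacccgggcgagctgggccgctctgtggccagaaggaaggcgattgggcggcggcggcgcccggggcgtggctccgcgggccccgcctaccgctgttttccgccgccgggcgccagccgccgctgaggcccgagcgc

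Counted from the gene's start, the element began at -65 in Hspa5, which fell, at -212 and, on the opposite strand, at -107 in Hsp90b1, which was not called, and at -105 in Dnajc3, which rose. Dnajb9 had a window but no match of these letters. The related element TGACGTGG stood in 0.676% of windows and, among the members, in that of Dnajc25.

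For the heat shock element, 2 inverted units (GAANNTTC, a palindrome) stood in 7.86% of all windows and in 8 of the members' 61 (13.1%), those of 7 genes. Of these, Hspa1b, Dnaja1 and Dnajb6 rose, and Hspa1a, Dnaja4, Dnajc5g and Dnajc27, singled out for their match, were not called. Hspa1a, Dnaja4 and Dnajc5g were near background in both groups and gave no reading. The longer form, in which a further GAA follows after 2 bases and which contains the shorter, stood in 0.603% of windows and only in both windows of Dnajb6 among the members. Dnajb4 and Dnajb1 had windows without either form. The units in the other order, TTCNNGAA, were not searched for alone in any window. The window of Dnaja1 with the match is chr4:40722218-40722517 on the plus strand and that of Hspa1b chr17:34959189-34959488 on the minus strand. They are shown, with the match in capitals, as examples of a J protein and an HSP70 gene that rose and hold it.
Dnaja1: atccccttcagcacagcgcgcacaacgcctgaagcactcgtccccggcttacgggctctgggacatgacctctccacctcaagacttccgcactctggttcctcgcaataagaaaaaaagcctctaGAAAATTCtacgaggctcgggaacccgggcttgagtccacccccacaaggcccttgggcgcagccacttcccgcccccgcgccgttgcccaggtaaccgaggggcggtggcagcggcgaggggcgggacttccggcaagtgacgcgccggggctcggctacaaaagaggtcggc
Hspa1b: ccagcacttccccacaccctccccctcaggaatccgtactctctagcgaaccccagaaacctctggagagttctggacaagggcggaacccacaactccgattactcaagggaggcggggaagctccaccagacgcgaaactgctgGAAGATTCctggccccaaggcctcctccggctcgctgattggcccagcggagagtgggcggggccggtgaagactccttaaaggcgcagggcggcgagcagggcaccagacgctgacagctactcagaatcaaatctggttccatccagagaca

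A match of letters is a description of the window, not a site in use. Windows of Hspa8, Hsp90aa1 and Hspa9 were not analysed here.

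Where a member had several probe sets above background they mostly moved alike. Of the 25 called members 19 had at least 1 other probe set above background, and in 11 of these all of the others were called the same way. In 2, Hspa5 and Dnajb6, another probe set was called the opposite way. Of the members not called, Dnajb1, Dnajc2 and Dnajc17 had another probe set above background that was higher (Dnajc2 and Dnajc17 are named for that result), as did Hspa4 with its dimmest probe set, above background in shSep15 cells only. For Dnajc2, a ribosome-associated J protein, the differences were 0.30 (limma adjusted p = 0.0761) on the brightest and 0.44 (adjusted p = 0.0113) on the next probe set. For Dnajc17, linked to splicing, they were 0.16 (limma adjusted p = 0.491) and 0.61 (adjusted p = 0.0150).

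**Figure D3:**
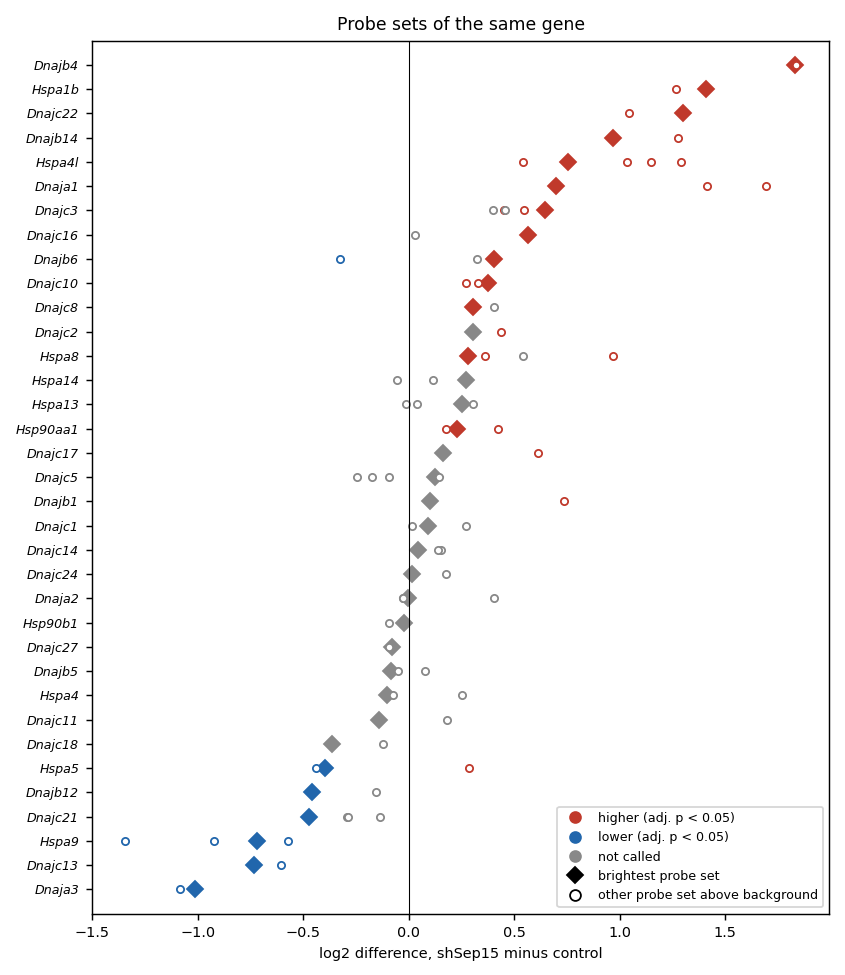
Log2 difference, shSep15 minus control, of each probe set above background for members with more than 1 such probe set, diamonds being the brightest of a gene and open circles the others. Red is higher and blue lower at a limma adjusted p under 0.05. Hspa4l, Dnaja1, Hspa9 and Dnaja3 have all their symbols on 1 side of 0 in 1 colour, whereas Hspa5 and Dnajb6 have both colours.

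Many of the rises lay on chromosomes where most genes leaned upward. Of the 16 members that rose, 3 were on chromosome 3 (Dnajb4, Dnajb14 and Hspa4l), 4 on chromosome 4 (Dnaja1, Dnajc8, Dnajc16 and Dnajc25) and 1 on chromosome 17 (Hspa1b). Among genes not near background, 42.5% of those on chromosome 3 were called higher, 32.8% on chromosome 4 and 31.7% on chromosome 17, against 19.2% over all chromosomes. Their median differences were 0.26, 0.16 and 0.16. Hspa9 lies on chromosome 18, where 46.2% of genes were called lower and the median was -0.31. Hspa9 differed by -0.72, and on chromosome 3 Dnajb4 differed by 1.83, Dnajb14 by 0.97 and Hspa4l by 0.76. Called genes mostly lie beyond a median of all genes, so these values do not separate them from their chromosome. Without chromosomes 3, 4, 17, 18 and X, 8 of the remaining 43 members were higher and 8 lower, with a median of 0.04. Dnaja3 lies on chromosome 16, Dnajb9 on 12, Hspa5 and Dnajc10 on 2 and Dnajc3 on 14, where medians were between -0.06 and -0.002. The part of the chromosomes in the members' differences was not tested.

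**Figure D4:**
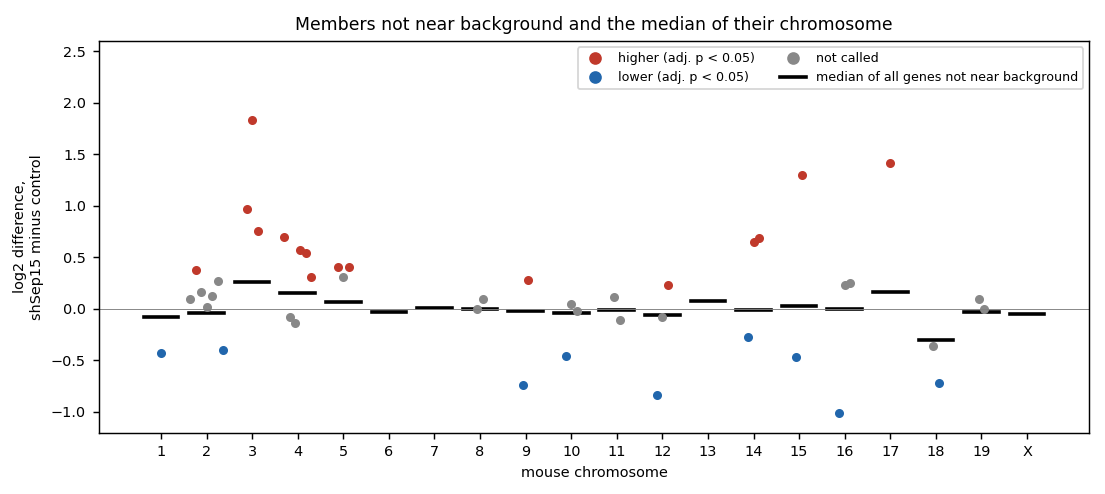
Log2 difference, shSep15 minus control, of the members not near background (points, red higher and blue lower at a limma adjusted p under 0.05), by mouse chromosome, with black bars at the median of all genes of the chromosome that were not near background. All 3 plotted members on chromosome 3 are above its raised median of 0.26, and both on chromosome 18 are below its lowered median of -0.31.

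Of 57 partner genes measured, cofactors and other chaperones that work beside the members, 14 rose and 7 fell (36.8%, against 25% of all genes and 39.2% of those not near background), with a median of 0.10. The cofactors of HSP90 had 4 rises (36.4%) and no fall by limma among 11, and no fall under an unadjusted p of 0.05 either. None of the 11 was near background. Among all genes not near background 19.2% were called higher and 20% lower. Fkbp5, an immunophilin of steroid receptor complexes, read 9.58, 9.49 and 9.37 in shSep15 cells, against 8.40, 8.26 and 8.34 in control cells, a rise of 1.15 (SE 0.10, limma adjusted p = 8.21e-05). Fkbp5 lies on chromosome 17, where 31.7% of genes not near background were called higher. The kinase-loading cofactor Cdc37 rose by 0.66, Ahsa1, which speeds up ATP hydrolysis by HSP90, by 0.65, and Stip1, which hands clients over to HSP90, by 0.34 (limma adjusted p = 0.00142, 0.000355 and 0.0135). The only other probe set of Ahsa1 above background was not called.

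Among 14 nucleotide exchange factors and other HSP70 cofactors, 6 rose (42.9%) and 3 fell (21.4%). None of the 14 was near background, and of all genes not near background 19.2% were called higher and 20% lower. Hsph1, the cytosolic HSP110, read 11.82, 11.63 and 11.55 in shSep15 cells, against 10.48, 10.25 and 10.51 in control cells, a rise of 1.26 (SE 0.10, 2.39-fold, limma adjusted p = 3.42e-05). Of the BAG domain proteins, which release ADP from HSP70, Bag4 rose by 0.79 and Bag5 fell by 0.66 (limma adjusted p = 0.00497 and 0.000497). The other BAG genes of the list are named with their values known. Bag1, Bag2 and Bag6 rose by 0.52, 0.44 and 0.45 (limma adjusted p = 0.00109, 0.0385 and 0.00564). Bag3 was not called (0.22, limma adjusted p = 0.105). Above background, 1 of the 2 other probe sets of Bag4 and the only other one of Bag5 were not called. Sil1, an exchange factor of Hspa5 in the ER, fell by 0.58 (limma adjusted p = 0.00783). Hyou1, another ER exchange factor of the list and named with its value known, was not called (0.10, limma adjusted p = 0.685). Grpel1 and Grpel2, the exchange factors of Hspa9, differed by 0.19 (limma adjusted p = 0.165) and -0.55 (adjusted p = 0.0152). Both were chosen after their values were known, as the partners of a called member. Sil1 and Grpel2 lie on chromosome 18, and Bag6 and Stub1, also among the 6 rises, on chromosome 17.

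Chaperonins, which fold proteins in closed chambers, and prefoldin, which hands unfolded actin and tubulin over to the cytosolic chaperonin, gave 4 rises and 2 falls among 19 genes of a list that also held Trap1 and Clpb. That is 31.6% called, against 25% of all genes and 39.2% of those not near background. Of the prefoldin subunits, Pfdn6 on chromosome 17 rose by 0.97 and Pfdn1 on chromosome 18 fell by 0.73 (limma adjusted p = 2.75e-05 and 0.00311). The other subunits measured, Pfdn2, Pfdn4, Pfdn5 and Vbp1, were named with their values known. They were not called, with differences from -0.19 to -0.003 (limma adjusted p from 0.145 to 0.986). Cct3 of the cytosolic chaperonin rose by 0.44 and Clpb, a mitochondrial disaggregase, fell by 0.92 (limma adjusted p = 0.00023 and 0.000106). Of the 5 other probe sets of Cct3 above background, 4 were called higher. The mitochondrial chaperonin pair Hspd1 and Hspe1 and the mitochondrial HSP90 Trap1, likewise chosen with their values known, were not called, with differences of -0.07, -0.10 and -0.16 (limma adjusted p = 0.254, 0.242 and 0.265). Of 9 small heat shock proteins, which hold unfolded proteins without ATP, Hspb8 fell by 1.22 and Cryab by 0.65 (limma adjusted p = 5.1e-05 and 0.00982), and the other 7 did not pass the test. The falls are 22.2% of the 9, against 12.8% of all genes and 20% of those not near background. Near background were 4 of the 9. Of the 2 other probe sets of Hspb8 above background, 1 was called lower. No call was made by limma among 4 genes of the heat shock factors and their binding protein, and none had an unadjusted p under 0.05. Hsf2 was near background, at 5.51 in shSep15 and 5.44 in control cells, and Hsf1 was not analysed here.

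**Figure D5:**
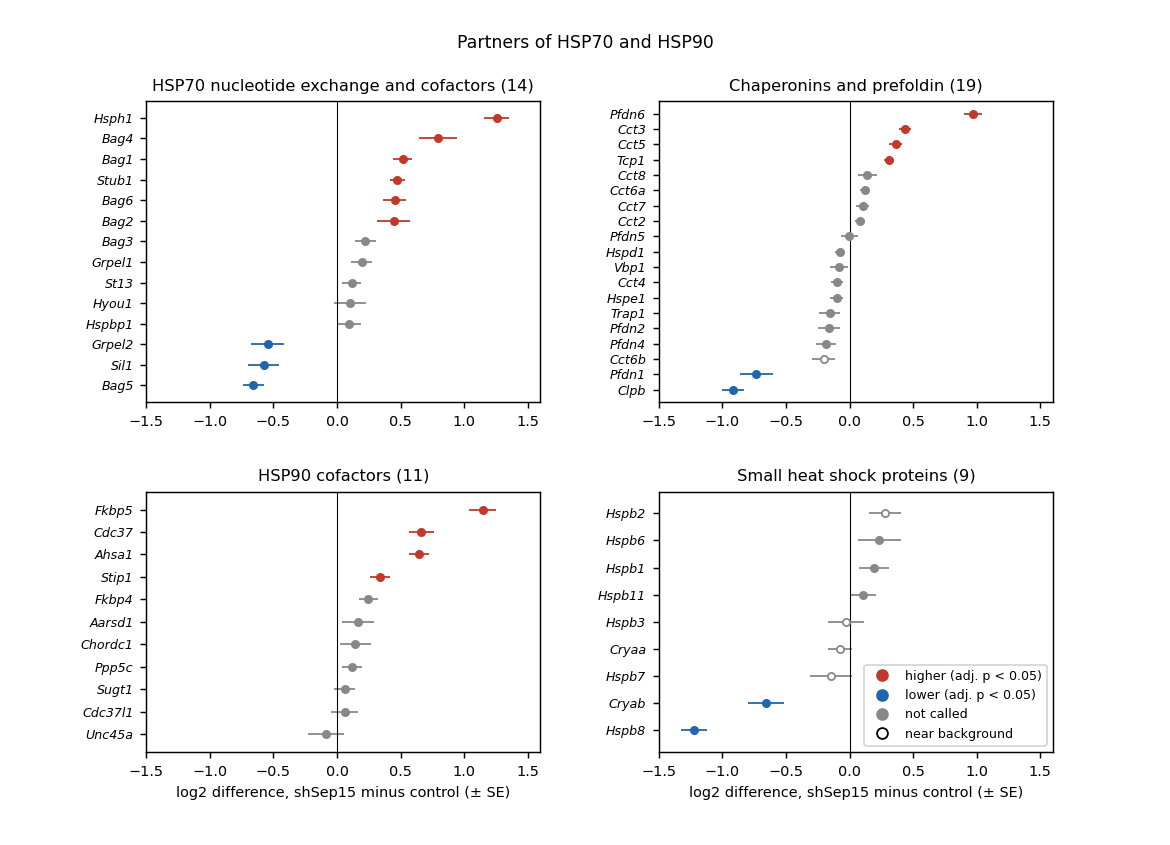
Log2 difference of the partner genes, shSep15 minus control, with its standard error from limma, in panels for HSP70 cofactors, HSP90 cofactors, chaperonins with prefoldin, and small heat shock proteins. Red is higher, blue lower, grey not called at an adjusted p of 0.05, and open points are near background. No HSP90 cofactor is blue and no small heat shock protein is red.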

How the data were processed

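RNA of CT26 cells was measured on 6 Affymetrix Mouse430_2 arrays, 3 per group, with groups taken from the sample titles. The deposited log2 values were made by the authors with RMA, per the submitters' processing notes; neither its version nor any filter is stated there. RMA sets the arrays' distributions alike, has no detection call and compresses the differences of dim probe sets. The number of arrays limits the precision.

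After 64 control probe sets were left out, 45037 were tested with limma 3.58.1 in R 4.3.3 (lmFit, eBayes with an intensity trend, group as the only term, two-sided, Benjamini-Hochberg over all 45037 at 0.05). Genes were named from 34945 probe sets with 1 symbol in the platform annotation; 932 had several and 9160 none, and these named no gene. The background level, a log2 of 6.02, is the mean below which 95% of 78 olfactory or vomeronasal receptor probe sets lay. Compartments were assigned from textbook knowledge, and every member not assigned to the ER or mitochondria was placed under cytosol, nucleus or other. Chromosomes came from the RefSeq gene table of GRCm38.p6. The script was tested on simulated data.

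The members and lists were chosen with earlier results of these data known. Named were Selenof, members called above background, 14 main chaperones and J proteins regardless of the test, Hsf1 and Hsf2, and up to 4 called genes with the largest differences per partner list; exceptions are marked.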

Additional observations from a re-analysis of the deposited data

How the results depend on the processing

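The counts of members were 16 higher and 9 lower. Leaving out 1 array at a time gave 12 to 15 higher and 6 to 8 lower, and 12 to 16 partner genes higher and 5 to 7 lower. Fits without the intensity trend, with shifted arrays, with renewed quantile normalization, on probe sets above background alone, with array quality weights or with the mean of a gene's probe sets gave 14 to 17 higher and 8 to 9 lower. Both counts moved by over 1.5 times with a minimum absolute difference of 1 (3 higher, 1 lower), and the higher count also without the members on chromosomes 3, 4, 17, 18 and X (8 higher, median 0.0447): 8 of the 16 members there had risen and 1 had fallen. The median of 0.09 was 0.0840 with shifted arrays, 0.0849 with renewed quantile normalization, 0.0786 with array weights, 0.11 on probe sets above background, and 0.0498 to 0.0902 with 1 array left out, a move of over 1.5 times without shSep15 1; the cause was not tested. With the replicate block 17 members were higher and 8 lower. Equal numbers did not go together throughout: deviations from the group means of same-numbered arrays correlated at 0.40, -0.20 and -0.06. Arrays of unlike number gave -0.39 to 0.44. The highest of these was shSep15 2 with control 3, and shSep15 3 with control 2 gave 0.17. Whether arrays of the 2 groups shared a batch was not tested. Of the 25 called members, 15 kept their call and direction in each of 13 alternatives and 10 lost it in at least 1; none turned its sign. Selenof was -2.98 to -2.85 with 1 array left out and -1.47 with the mean of its probe sets, 1 of which is near background. With dim probe sets, differences near background are not resolved.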
